A study of Mus musculus with 4 samples.

Results

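The 10 genes described here encode the enzymes that make serine and that move its carbon through folate: Phgdh, Psat1 and Psph of serine synthesis, the cytosolic folate enzymes Shmt1 and Mthfd1, and the mitochondrial folate enzymes Shmt2, Mthfd2, Mthfd2l, Mthfd1l and Aldh1l2. They form a group by pathway, picked with earlier results of these data known, and all 10 were found among 21900 protein-coding gene models of mouse assembly GRCm38.p6, the assembly of mm10. ATF4 chromatin pull-down on streptavidin beads was deposited for heart ventricle of mice aged 4 weeks in 2 samples, here replicate 1 and replicate 2, with 2 input samples whose values are not analysed here. The antibody field of the pull-down labels reads AAV and that of the inputs reads none. Strain, sex and genotype are not given in the sources used here. The pull-down titles read ATF4-bio1 and ATF4-bio2. The labels do not state where the captured ATF4 came from, or whether the 2 samples are separate animals.

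ATF4, a transcription factor, is translated more when phosphorylation of eIF2 slows initiation in the integrated stress response. In other cells it is known to bind composite C/EBP-ATF elements and to raise genes of amino acid supply, among them several of the serine and mitochondrial folate enzymes. Serine is built from a glycolytic intermediate by PHGDH, PSAT1 and PSPH. The serine hydroxymethyltransferases SHMT1 and SHMT2 then pass a carbon from serine to tetrahydrofolate and leave glycine. In mitochondria that carbon is oxidised by MTHFD2 or MTHFD2L and released as formate by MTHFD1L, or burnt to CO2 by ALDH1L2, while MTHFD1 takes up formate in the cytosol for purine and thymidylate synthesis.

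A value per peak is given below as a fold, read as one over a constant background of its sample because the values rise in even steps. That reading is inferred, and the fold is not taken as a ratio to input. A peak alone is no proof that ATF4 was bound. The series-wide list is named as a merged IDR set, and at all 21 of its peaks at the 10 genes it carries the higher fold of the replicates, so replicate values are given beside it. It held 41639 peaks, down to 7.5-fold, of which 40643 had a peak in both replicate lists, and those lists held 78746 peaks in replicate 1 and 88812 in replicate 2. The replicate files give no fold. Their folds of 7.5 and above were read from peaks identical in the series-wide list, whereas every replicate fold below 7.5 was extrapolated in equal steps from the lowest of these, and is approximate. Of the peaks at the 10 genes, 17 in replicate 1 and 23 in replicate 2 have such an extrapolated fold. Sequencing depth is unknown. Among marker genes, a series-wide peak lay at an end of 6 of 6 for cardiomyocytes (9.75-fold at Ryr2 to 62-fold at Tnnt2). The counts were 2 of 4 for fibroblasts, 1 of 4 for endothelium, 1 of 4 for immune cells and 0 of 4 for neural cells. The share of all protein-coding genes was 34.9%. In replicate 1 and replicate 2 the counts were 6 and 6 for cardiomyocytes, 3 and 4 for fibroblasts, and 3 and 3 for endothelium. They were 2 and 1 for immune cells and 1 and 1 for neural cells (Snap25), against 48.2% and 50.2% of all genes. With 10 kb on each side, the series-wide counts were 6, 3, 3, 2 and 2 in the same order, against 61.1% of all genes. A peak is no measure of RNA.

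Promoter sequences are shown for the genes with the highest folds, from 250 bases before to 50 bases after a RefSeq start on GRCm38.p6, all on the minus strand and written 5′ to 3′. Psat1 (chr19:15925010-15925309) is shown because the summits of both replicates fell inside it, and a stretch of Slc1a4, a neutral amino acid transporter gene (chr11:20332664-20332777), because it was the only promoter among the 10 genes and the other genes of the pathway with the exact element TTGCATCA. Capitals mark TTGCATCA or the closest match to it on either strand.
Psat1: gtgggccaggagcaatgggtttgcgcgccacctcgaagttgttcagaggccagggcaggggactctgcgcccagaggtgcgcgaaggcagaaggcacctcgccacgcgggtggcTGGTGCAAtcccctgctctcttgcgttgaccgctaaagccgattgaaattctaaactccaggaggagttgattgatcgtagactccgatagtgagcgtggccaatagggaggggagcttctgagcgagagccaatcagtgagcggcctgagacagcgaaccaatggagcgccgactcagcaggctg
Slc1a4: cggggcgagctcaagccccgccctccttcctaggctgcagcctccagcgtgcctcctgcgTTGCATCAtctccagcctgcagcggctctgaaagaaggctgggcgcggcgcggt

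In Mthfd2 (chr6:83317555-83317854) and Shmt2 (chr10:127522395-127522694) the peaks reached the start from the downstream side, which is why their promoters are shown with capitals for the bases inside the series-wide peak, 177 in Mthfd2 and 189 in Shmt2.
Mthfd2: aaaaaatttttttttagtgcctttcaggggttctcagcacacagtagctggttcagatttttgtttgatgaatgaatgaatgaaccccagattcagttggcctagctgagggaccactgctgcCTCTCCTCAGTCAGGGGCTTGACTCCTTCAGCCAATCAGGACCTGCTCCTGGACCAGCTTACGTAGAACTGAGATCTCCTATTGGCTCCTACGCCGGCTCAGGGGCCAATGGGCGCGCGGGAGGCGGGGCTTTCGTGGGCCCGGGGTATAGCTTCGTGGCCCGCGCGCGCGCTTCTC
Shmt2: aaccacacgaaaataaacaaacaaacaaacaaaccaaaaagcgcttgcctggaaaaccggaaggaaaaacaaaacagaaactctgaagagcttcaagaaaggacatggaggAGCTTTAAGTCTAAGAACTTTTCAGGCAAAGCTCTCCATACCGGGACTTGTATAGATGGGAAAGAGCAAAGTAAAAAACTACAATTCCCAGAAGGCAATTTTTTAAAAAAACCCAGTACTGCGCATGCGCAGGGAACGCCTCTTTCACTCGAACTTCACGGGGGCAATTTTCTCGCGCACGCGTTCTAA

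Peaks lay at the ends of most of these genes. In the series-wide list 7 of the 10 had a peak within 1 kb of either end of the gene model, against 34.9% of all protein-coding genes. The 3 without were Shmt1, Mthfd1 and Mthfd2l. In replicate 1 the count was 9 of 10, against 48.2% of all genes, and in replicate 2 it was 10 of 10, against 50.2%. Both replicates had a gene-end peak at 9 of the 10, all but Mthfd2l, against 45.2% of all genes, and overlapping ones at the same 9, against 44.6%. Counted at RefSeq starts, which the promoter table gives for 9 of the 10 genes, a series-wide peak lay within 1 kb at 6 of 9, against 35.4% of the genes in that table. There the count was 8 of 9 in replicate 1, against 48.4%, and 9 of 9 in replicate 2, against 50.2%. No test was made of these counts, since the genes were chosen with results of these data known. The strongest gene-end peak had a median series-wide fold of 15 over the 7 genes and of 13.3 over all 7644 genes with such a peak. A gene-end peak from the top 20% of the list by fold (21.5 or more) was held by Psat1 alone, 1 of 10 genes against 5.66% of all genes.

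By role, all 3 serine synthesis genes and 4 of the 5 mitochondrial folate genes had a series-wide gene-end peak, and 0 of the 2 cytosolic folate genes did. This split was not tested, and both cytosolic genes had gene-end peaks in each replicate list. With the search widened to the gene model and 10 kb on each side, 9 of 10 had a series-wide peak, all but Shmt1, against 61.1% of all genes. Each replicate had a peak there at 10 of 10, against 72.3% of all genes in replicate 1 and 74.1% in replicate 2. Psat1, Shmt2 and Mthfd2 had one from the top 20% of the series-wide list, 3 of 10 genes against 21% of all genes. The 10 genes had a median length of 24.6 kb, against 17.1 kb for all protein-coding genes, and longer genes can hold more peaks.

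**Figure D1:**
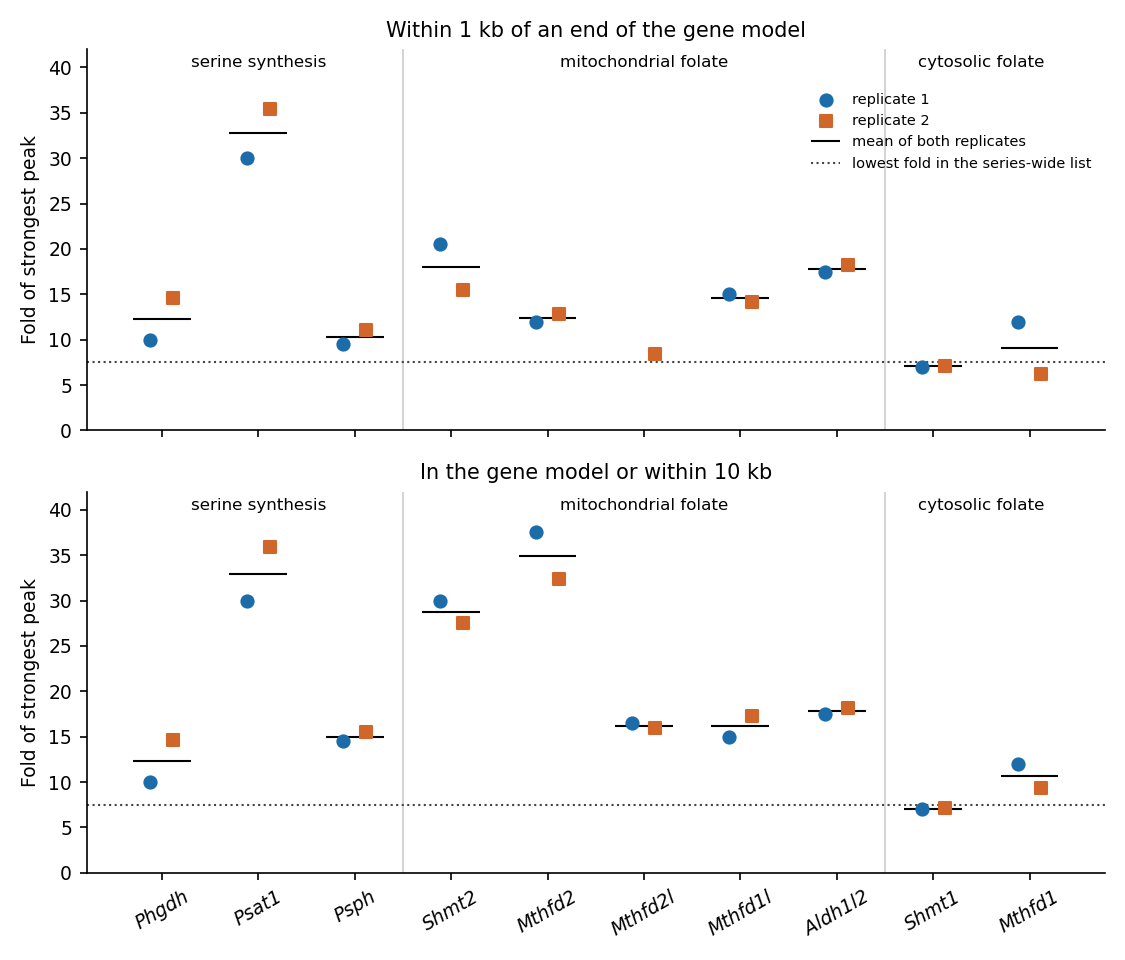
Fold of the strongest peak of each gene (vertical axis) in replicate 1 (circles) and replicate 2 (squares), with the mean of both as a bar, for peaks within 1 kb of a gene end (upper panel) and in the gene model or within 10 kb (lower panel). Psat1 stands highest at gene ends with 30 and 35.5, Mthfd2 and Shmt2 rise in the lower panel, and both Shmt1 points lie under the dotted line at 7.5, the lowest fold of the series-wide list, below which replicate folds are extrapolated.

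Psat1, which encodes the aminotransferase of the middle step of serine synthesis, had the strongest gene-end peak of the 10 genes. Its fold was 30 in replicate 1 and 35.5 in replicate 2 (mean 32.7 ± 3.86, SD, n = 2). The series-wide peak, chr19:15923936-15925985, was 2050 bp wide and had a higher fold than 95.7% of the genes with a gene-end peak. Psat1 has 2 RefSeq starts, and the replicate summits lay at −133 and −119 bases from the first, that is, upstream of it. The series-wide file, however, places the summit of the joined peak 645 bases downstream of that start. From the second start, 437 bases further into the gene, the replicate summits lay at −570 and −556 and the series-wide summit 208 bases downstream. In replicate 2 the joined peak was deposited as 2 peaks, and the downstream one (chr19:15923936-15924472) had a fold of 19.9. Replicate 1 split it differently, with a second peak of 10-fold at chr19:15925634-15925959.

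A second peak inside Psat1 was as high as that at the start. It lay 13.9 kb into the gene at chr19:15910547-15911396, with folds of 29.5 in replicate 1 and 35.9 in replicate 2 (mean 32.7 ± 4.53, SD, n = 2). The replicate summits were 7 bases apart. A weaker peak 1.48 kb into the gene had 10 and 12.4. The model spans 19.9 kb, and peaks were compared over the model and 10 kb on each side. There the 3 series-wide peaks compare with a median of 1 among 2743 protein-coding genes of like length, of which 16.8% had at least as many.

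Phgdh, which encodes the dehydrogenase that opens the pathway, had a moderate peak set back from its start. The peak chr3:98338757-98339907 had folds of 10 in replicate 1 and 14.6 in replicate 2 (mean 12.3 ± 3.27, SD, n = 2). Its summits lay 716 and 754 bases downstream of the RefSeq start, and its right edge stopped short of that start, so the 300-base promoter of Phgdh held no peak of any of the 3 lists. Deeper in the gene a weaker pair of replicate peaks had 6.0 (extrapolated) and 7.54, outside the series-wide list.

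Psph, which encodes the phosphatase that releases serine, shared its start with another gene. The peak chr5:129786737-129787776 had folds of 9.5 in replicate 1 and 11.1 in replicate 2 (mean 10.3 ± 1.12, SD, n = 2), and covered the start of Cct6a, a chaperonin subunit gene that runs the other way. Which of the pair the peak belongs to cannot be told from its position. Inside Psph, away from Cct6a, 2 further series-wide peaks were somewhat higher. That at chr5:129782257-129782554 had 12 and 15.5, and that at chr5:129778533-129779347 had 14.5 and 13.7. Psph thus had 3 series-wide peaks in the model or within 10 kb, a number reached over the same span by 17.6% of 2745 genes of like length.

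**Figure D2:**
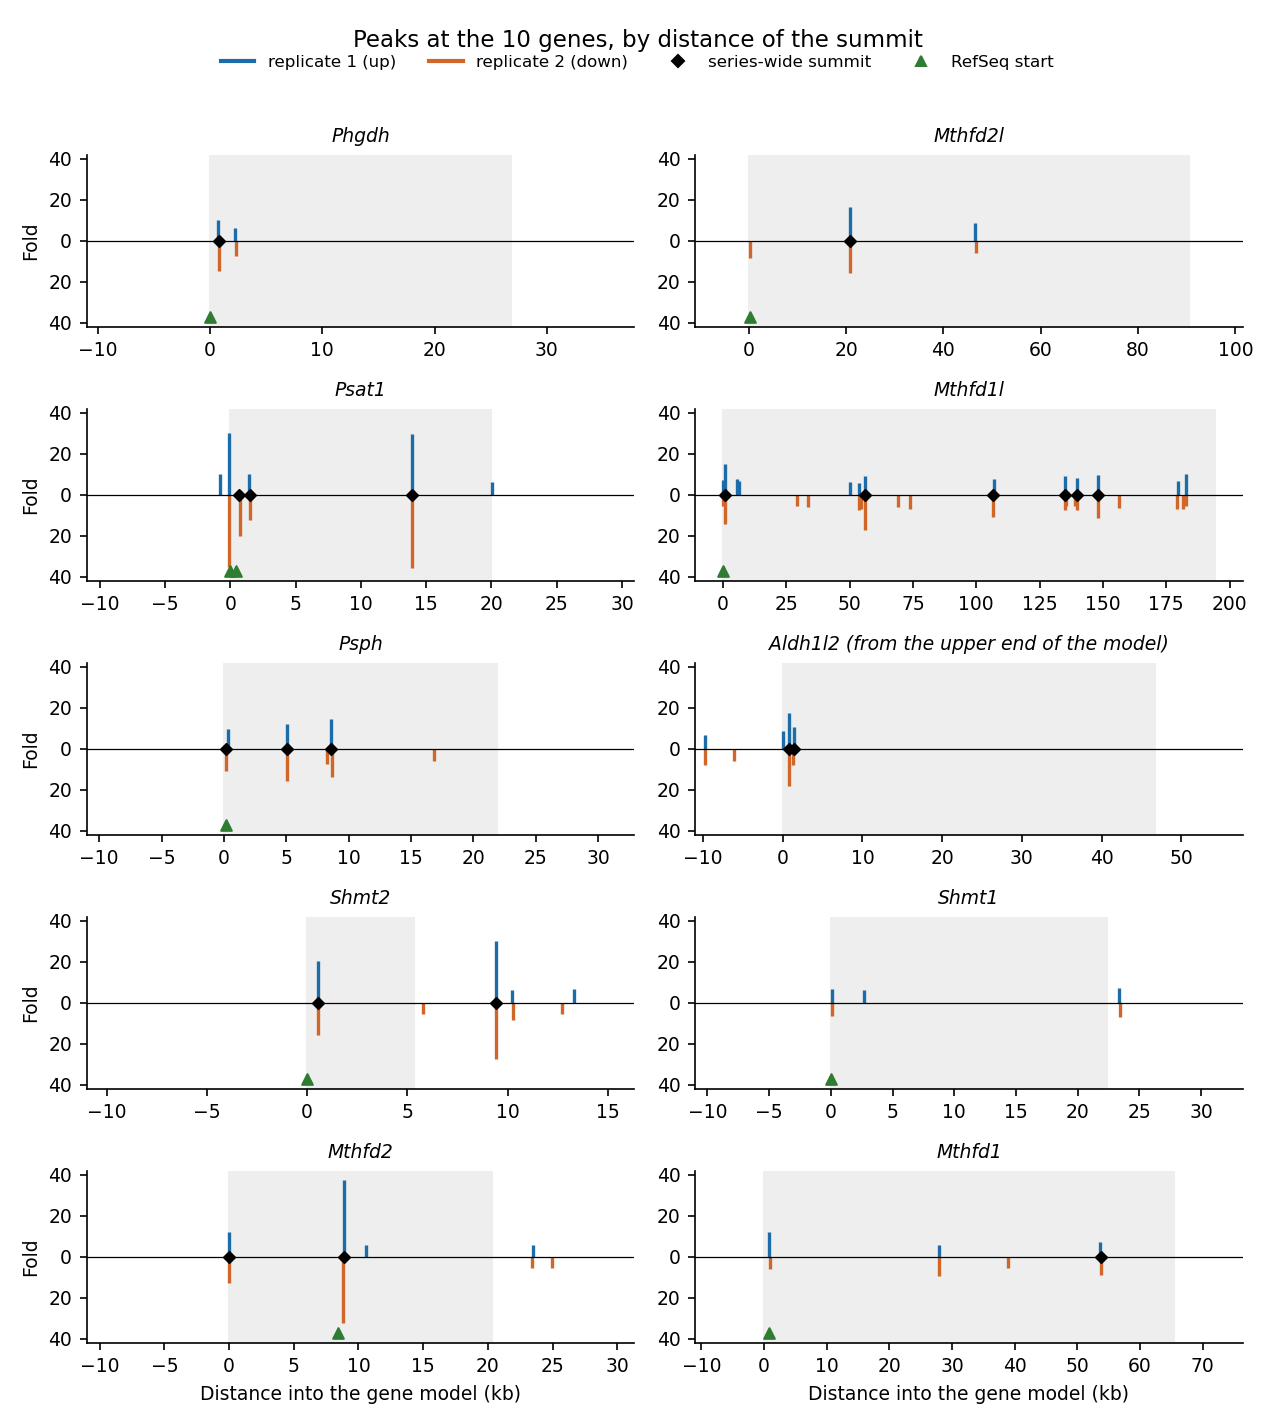
Summits of all peaks in each gene model (grey) and within 10 kb of it, with distance into the model along the horizontal axis in kb and fold on the vertical axis, replicate 1 upwards and replicate 2 downwards; diamonds mark series-wide summits and triangles RefSeq starts. The tallest peaks of Psat1, Mthfd2 and Shmt2 appear at the same places in both replicates, and Mthfd1l has many low peaks along its length.

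Among the mitochondrial genes, Mthfd2, of the NAD-dependent methylenetetrahydrofolate dehydrogenase and cyclohydrolase, carried the peak of highest series-wide fold of the 10 genes, although in replicate 2 both high peaks of Psat1 stood above it. Its fold was 37.5 in replicate 1 and 32.4 in replicate 2 (mean 34.9 ± 3.64, SD, n = 2). The peak chr6:83316971-83317731 spans the RefSeq start of Mthfd2 and had its summits 438 and 412 bases downstream of it. Because the gene model reaches 8.41 kb further upstream than this start, a search at the ends of the model misses the peak and finds a weaker one. That weaker peak, chr6:83325846-83326395, had 12 and 12.9 (mean 12.4 ± 0.604, SD, n = 2) and also covered the start of the neighbouring Mob1a. Measured at the RefSeq start, Mthfd2 exceeded 97% of the genes that had a start peak in the series-wide list, and Psat1 exceeded 96.2%.

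Shmt2, the mitochondrial serine hydroxymethyltransferase gene, had a peak just inside its start. The peak chr10:127521812-127522583 had folds of 20.5 in replicate 1 and 15.5 in replicate 2 (mean 18 ± 3.53, SD, n = 2), with summits 522 and 518 bases downstream. A higher peak lay beyond the far end of the gene, 9.43 kb from the start. This peak, chr10:127512892-127513243, had 30 and 27.5 (mean 28.7 ± 1.78, SD, n = 2), and it falls inside the model of the neighbouring gene Ndufa4l2. It was the only one of the 21 series-wide peaks at the 10 genes whose summit lay outside the model of the gene it was counted for.

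Mthfd1l, which encodes the mitochondrial formyltetrahydrofolate synthetase, had the most peaks. Its gene-end peak chr10:3973553-3974045 had folds of 15 in replicate 1 and 14.2 in replicate 2 (mean 14.6 ± 0.577, SD, n = 2), with summits 697 and 675 bases downstream of the RefSeq start. At the start itself the replicates had low peaks, extrapolated at 7.0 and 5.32. The gene spans 194.2 kb, and 5 further series-wide peaks of 8.0 to 17.3-fold were spread along it. Counted in the model and 10 kb on each side, the 6 in all compare with a median of 3 in 647 genes of like length, of which 35.9% had at least 6. The peak at chr10:4028746-4029184 had the largest SD of the 21 series-wide peaks at the 10 genes, with 9.0 in replicate 1 and 17.3 in replicate 2 (mean 13.1 ± 5.86, SD, n = 2).

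Aldh1l2, the mitochondrial formyltetrahydrofolate dehydrogenase gene, had its peaks near the higher-numbered end of the model. The stronger, chr10:83533134-83533658, had folds of 17.5 in replicate 1 and 18.2 in replicate 2 (mean 17.8 ± 0.476, SD, n = 2), with summits 733 and 762 bases inside that end. A second at chr10:83532511-83532965 had 10.5 and 7.98. In replicate 1 alone a peak of 8.5-fold lay on the end itself. The promoter table has no entry for Aldh1l2, so these distances are from the end of the model.

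Mthfd2l, the paralogue of Mthfd2, differed from it in having nothing at its start in the series-wide list. Its series-wide peak lay 20.5 kb into the gene at chr5:90951569-90951859, with 16.5 in replicate 1 and 16 in replicate 2 (mean 16.2 ± 0.384, SD, n = 2) and identical summits. At the start, replicate 2 had a peak of 8.42-fold and replicate 1 had none. Of the replicate 2 peaks of that fold, 58.8% overlapped a series-wide peak.

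Of the 9 genes with a gene-end peak in both replicates, the cytosolic pair had the lowest means, 7.05 ± 0.0649 for Shmt1 and 9.1 ± 4.1 for Mthfd1 (SD, n = 2). In replicate 1 alone Mthfd1 was not low, its 12 lying above Phgdh and Psph, and its place rests on an extrapolated value in replicate 2. At the start of Shmt1, the cytosolic serine hydroxymethyltransferase gene, replicate 1 had 6.5-fold (chr11:60810877-60811403) and replicate 2 had 6.65-fold (chr11:60810959-60811272), with summits 113 and 103 bases downstream, both folds extrapolated. Just past the other end, 7.0 and 7.09, extrapolated as well, were found at peaks that lie inside the neighbouring gene Smcr8. All 4 values were under the lowest fold of the series-wide list, 7.5. Both samples thus had a low peak at the Shmt1 start.

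Mthfd1, whose protein joins formate to folate in the cytosol, had a start peak that the replicates gave at different heights. Replicate 1 had 12-fold (chr12:76255003-76255571) and replicate 2 had an extrapolated 6.21-fold (chr12:76254903-76255469), a mean of 9.1 ± 4.1 (SD, n = 2). Of the replicate 1 peaks of 12-fold, 89% overlapped a series-wide peak, and of the replicate 2 peaks of 6.21-fold, 2.17% did. The series-wide peak of Mthfd1 lay 52.9 kb into the gene at chr12:76307904-76308250, with 7.0 (extrapolated) and 8.87 (mean 7.93 ± 1.32, SD, n = 2). Only 3.01% of the genes with a series-wide peak in the model or within 10 kb had a lower highest fold.

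The place of the strongest peak relative to the start was then compared with that of all genes, for peaks within 1 kb of a RefSeq start. In both replicates 4 genes, Phgdh, Shmt2, Mthfd2 and Mthfd1l, had this summit more than 250 bases downstream. They were 4 of the 8 with a start peak in replicate 1 and 4 of 9 in replicate 2. Over all protein-coding genes with a start peak the share was 11.8% of 8465 in replicate 1 and 12.8% of 8783 in replicate 2, and the median summit lay at −52 bases, upstream of the start, in each. Among peaks of at least 10-fold the 4 genes were 4 of 6 in each replicate, against 10.5% of 4526 genes in replicate 1 and 10.9% of 4467 in replicate 2. Psat1, Psph, Shmt1, Mthfd1 and, in replicate 2, Mthfd2l had theirs within 250 bases of the start. For Psat1 this holds from the first of its starts, while from the second the summits lay further upstream. The distance of 250 bases was chosen after the values were seen, and the contrast is a description without a test.

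**Figure D3:**
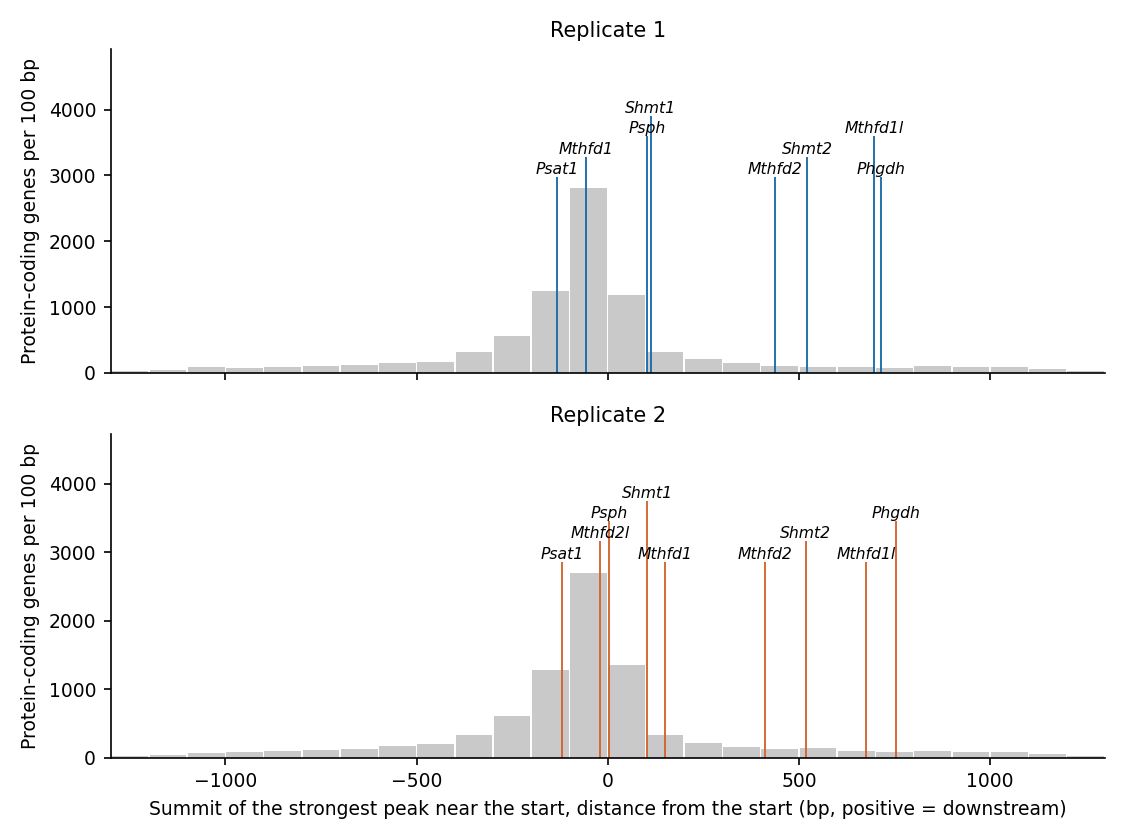
Distance of the summit of the strongest peak within 1 kb of a RefSeq start from that start (horizontal axis, bp, positive downstream) for all protein-coding genes with such a peak (grey bars, genes per 100 bp) and for the genes of serine and folate metabolism (lines), in replicate 1 (upper) and replicate 2 (lower). Most genes pile up just before the start, while Mthfd2, Shmt2, Mthfd1l and Phgdh lie 412 to 754 bases after it in both replicates.

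Most series-wide peaks at these genes had close summits in the replicates. An IDR set is one selected for agreement between replicates, so agreement within this list cannot measure reproducibility. All 21 series-wide peaks in or within 10 kb of the 10 genes had a peak in both replicates, as did 40643 of all 41639. The replicate summits of the 21 lay a median of 22 bases apart, against 21 over the 40643. Of the 21, 18 had them within 50 bases, against 80% of the 40643. The exceptions were the Aldh1l2 peak of 10.5-fold at 52 bases, the Psph start at 99 and a peak in Mthfd1l at 413. For the gene-end folds the SD was a median of 10.9% of the mean over 9 genes, against 11.8% over 9901 protein-coding genes with a gene-end peak in both replicates. Of these 9 genes, 3 had the higher value in replicate 1 (Shmt2, Mthfd1 and Mthfd1l), against 48.8% of the 9901.

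Below the series-wide list each replicate held further low peaks. Of 43 replicate 1 peaks in or within 10 kb of the 10 genes, 21 did not overlap a series-wide peak, and of 52 in replicate 2, 29 did not. Their median folds were 6.5 and 6.21, both extrapolated. In each replicate 12 of them overlapped a peak of the other replicate, and 9 in replicate 1 and 17 in replicate 2 did not. The share over all peaks outside the series-wide list is not given here, so these counts cannot be called high or low. The highest such peaks at the 10 genes were the 12-fold peak at the Mthfd1 start in replicate 1 and a 9.31-fold peak inside Mthfd1 in replicate 2. The share of peaks that entered the series-wide list was 51.2% in replicate 1 and 44.2% in replicate 2 at these genes, against 53.4% and 47.5% over all peaks of the lists.

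The letters of the element and of related elements were searched in the promoters on both strands. Of 32851 promoters in the table, 0.895% held TTGCATCA, 3.97% held TTNCATCA (which includes it), 1.79% held the cAMP response element TGACGTCA, 0.49% held TGACGCAA and 5.2% held TGACTCA. The MEF2 letters CTATTTTTA and CTAAAAATA were held by 0.493% and 0.517%. None of these 7 was found in the 10 promoters of the 9 genes with an entry, which says only that the letters are not in these windows. In Phgdh, Shmt2, Mthfd2 and Mthfd1l the summits lie outside the window that could be searched.

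With at most 1 letter changed, a search added after the data were seen, TTGCATCA matched in 16.9% of all promoters and in 2 of the 10. Such a match was held by 14.5% of promoters covered by a peak of the top 20%, by 10.5% of those covered by another series-wide peak and by 18.6% of those with none. In the same order, the exact TTGCATCA was held by 1.43%, 0.554% and 0.958%, and TTNCATCA by 4.12%, 2.11% and 4.44%. In Psat1 the match with 1 letter changed was TGGTGCAA, which differs from the reverse complement TGATGCAA by A3G, counted from 1 at the 5′ end. Its 8 bases, chr19:15925188-15925195, begin 136 bases before the first Psat1 start. The replicate 1 summit fell inside them and the replicate 2 summit 10 bases from them. In Mthfd1l the match was TGGCATCA, which differs from TTGCATCA by T2G, 156 bases before the start and 131 bases from the summit of the 7.0-fold peak of replicate 1. In Slc1a4 the exact element covered the replicate 2 summit of a peak of 23.9-fold and lay 20 bases from the replicate 1 summit of 21-fold. A match of letters is not a measured binding site.

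The other genes of the pathway, 48 in 6 lists, had series-wide gene-end peaks at 22 (45.8%), against 34.9% of all protein-coding genes. Their median fold was 11.7, under the 13.3 of all genes with such a peak. In replicate 1 the count was 31 of 48, against 48.2% of all genes, and in replicate 2 it was 29 of 48, against 50.2%. Purine synthesis had 6 of 10, the methionine cycle 4 of 7, serine and glycine transport and use 6 of 13, other folate enzymes 3 of 7, folate transport and polyglutamation 2 of 7 and the glycine cleavage system 1 of 4.

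Among the other folate enzymes Mthfs, which returns a stored formyl folate to the active pool, had 13.5 in replicate 1 and 13.7 in replicate 2 (mean 13.6 ± 0.17, SD, n = 2). Aldh1l1, the cytosolic counterpart of Aldh1l2, had a gene-end peak in replicate 2 alone, of 9.75-fold, although 5 series-wide peaks of up to 28.4-fold lay in or within 10 kb of it. Ftcd had no series-wide peak at its ends and 1 of 19.1-fold in the model or within 10 kb. Slc25a32, the mitochondrial folate carrier gene, led its list with 18 and 12.4, and Folr1 had 8.0 and 11.1. Folr2 and Fpgs had no peak at their ends in any list. In the model or within 10 kb each had 3 series-wide peaks, of up to 14.5-fold at Folr2 and 32.8-fold at Fpgs.

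Transport genes for serine and glycine included the highest gene-end peak among the pathway genes named here. Slc1a4 had 21 in replicate 1 and 23.9 in replicate 2 (mean 22.5 ± 2.08, SD, n = 2). The glycine transporter gene Slc6a9 had 17.5 and 13.3, the amino acid transporter gene Slc38a2 had 13 and 12.4, and Gcat, of glycine formation from threonine, had 10.5 and 8.87. Dmgdh and Gnmt, known as liver enzymes, had no gene-end peak in any list. Sardh, known from liver too and named after its values were seen, had 9.0 and 9.31 at an end and 10 series-wide peaks of up to 41-fold in the model or within 10 kb. Of the glycine cleavage genes Gcsh had 8.0 and 10.6, and Amt and Dld had no series-wide gene-end peak, Dld having 10.5-fold in replicate 1 alone. In or within 10 kb of Amt a series-wide peak reached 46.1-fold.

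In the methionine cycle Mat2a, the S-adenosylmethionine synthetase gene of most tissues other than liver, had 15.5 in replicate 1 and 12 in replicate 2 (mean 13.7 ± 2.5, SD, n = 2). Mat2b, its regulatory subunit gene, had 8.5 and 11.1, Mtr, of methionine synthase, had 8.5 and 9.31, and Ahcy had 8.0 and 8.87. Bhmt and Mat1a, both known from liver, had no series-wide gene-end peak. In the model or within 10 kb Bhmt had 2 series-wide peaks of up to 16-fold, and Mat1a had 0. For purines, Ppat and Paics, whose starts lie close together on opposite strands, share a peak of 14 and 18.6, Impdh2 had 16.5 and 15.1, and Prps1 had 8.5 and 12.4. Atic and Impdh1 had none in the series-wide list. Gart, named after its value was seen, had a series-wide gene-end peak of 9.5-fold and no peak within 10 kb in either replicate list.

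**Figure D4:**
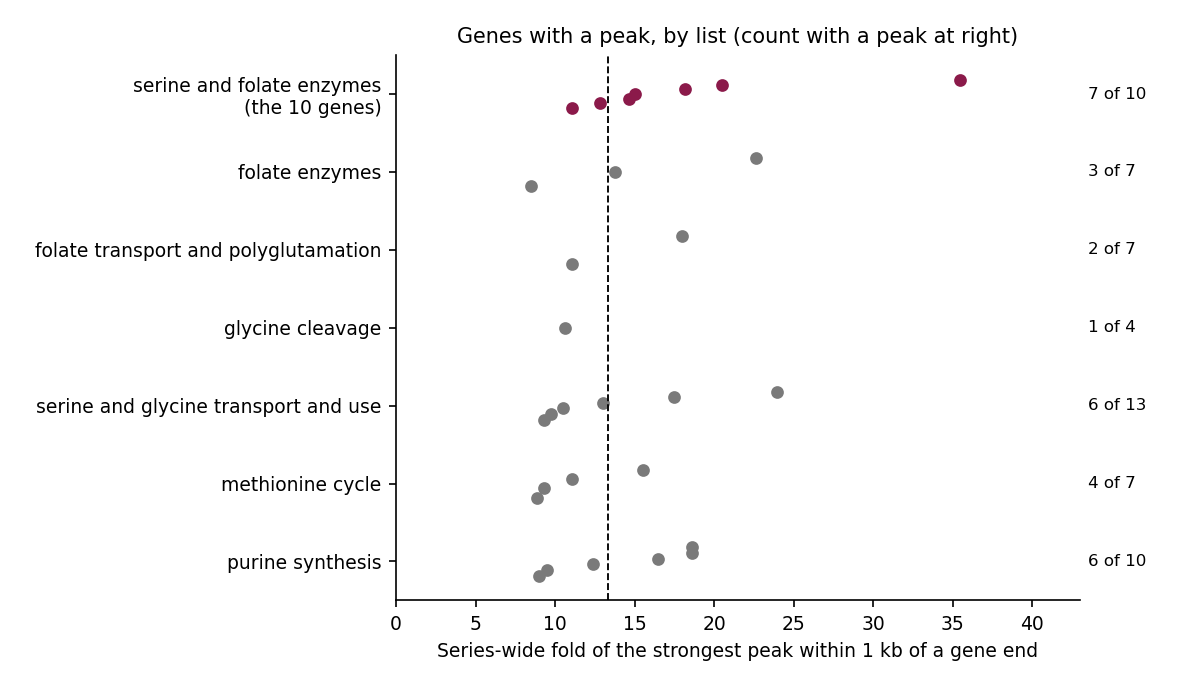
Series-wide fold of the strongest peak within 1 kb of a gene end (horizontal axis), with a point for each gene that has such a peak, for the 10 genes (top) and the 6 lists of other pathway genes; counts with a peak stand at right and the dashed line is the median of all genes with a peak, 13.3. Psat1 at 35.5 stands to the right of every pathway gene plotted, the highest of which is Slc1a4 at 23.9.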

How the data were processed

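Peak lists of ATF4 pull-down samples were used as deposited. Per the labels' protocols, fixed and sonicated chromatin was cleared with protein A beads before capture on streptavidin. The submitters' processing notes name mm10 and the tools deepTools, MACS2 and Bowtie2, without role, order or version. The authors' deposited replicate lists give a −log10 p-value or q-value per peak, and which of the pair was not settled. The series-wide list gives a fold enrichment ratio per peak as deposited by the authors, in whole steps of a constant, and the filters behind it are not given in the sources used here. Series-wide starts count from 0 and replicate starts from 1, tested on 17420 and 21063 identical peaks, and all coordinates here count from 1. Replicate folds were read from the values tied to series-wide folds by these peaks (all in replicate 1, all but 16 in replicate 2, where the commonest fold was taken). The lowest 4 and 5 values, which no identical peak tied, were extrapolated downwards in steps of 0.5 and 0.443. They cover 29431 peaks of replicate 1 and 36863 of replicate 2, with 17 and 23 at the 10 genes. In replicate 1, 2 high values were interpolated, and in replicate 2, 9 were, with 0 peaks at the 10 genes. Folds were not scaled between samples, and 0 value columns were left unmapped.

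Gene models, RefSeq starts and promoters came from RefSeq tables of GRCm38.p6. The gene table gives no strand, so either end of a model counted as a gene end, and a peak counted with at least 1 bp of overlap. The 10 genes, the pathway lists and the rule for named genes (all 10, and in each pathway list up to 4 genes of highest fold and 2 in alphabetical order without a gene-end peak) were chosen with earlier results of these data known; Tnnt2, Ryr2, Snap25, Sardh and Gart were named after their values were seen. Some genes that the rule names are not reported here. Genome sequence outside the promoter table was not used here. No test was made, and SDs are between 2 samples whose spread may be technical. Alternatives covered windows, peak strength, peak width, starts, flanks, overlap and each replicate alone. Overlap and motif searches recovered 500 of 500 simulated cases each. Python 3.11.15, NumPy 2.4.6, pandas 2.3.3 and Matplotlib 3.10.9 were used.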

Additional observations from a re-analysis of the deposited data

How the results depend on the processing

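The count of 7 genes with a series-wide gene-end peak was between 5 and 10 under every other alternative tried, and 1 when only the top 20% of peaks by fold were kept. It was 5 without peaks shared with another gene's end, which drops Psph and Mthfd2. The share of all genes is not given for the other windows, the top 50%, narrowed peaks or unshared peaks. Counts under those settings therefore do not show whether the excess over all genes held. The count of 22 pathway genes became 9 with the top 50% and 2 with the top 20% by fold. Those 2 of 48 compare with 5.66% of all protein-coding genes at that cut, so the higher share seen with the whole list did not hold there. The median series-wide fold of 15 was 16.4 with a window of 500 bp, 18.2 and 35.5 with the highest 50% and 20%, and 17.8 at starts alone; by construction a stricter list keeps higher peaks. With replicate 1 alone it was 12 over 9 genes, and with replicate 2 alone 13.5 over 10. These sets include genes outside the 7, and the series-wide fold is the higher of the replicates at the 10 genes, so the medians are not like for like. The median of the mean replicate folds, 12.4, was 12 to 14.2 with a replicate left out and 16.1 for the strongest peak within 10 kb. Mthfd2 depended most on the window, with 34.9 at its RefSeq start and 12.4 at the ends of its model; Shmt2 had 28.7 within 10 kb. Against all 49997 gene models the share with a gene-end peak was 21.9%. No paired analysis was possible because the input samples that share the replicate numbers have no values here. The 10 kb and RefSeq start settings for mean folds and the background of all gene models were chosen after seeing the data. Depth is unknown, so no interval for counting error is given.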
